A study of Homo sapiens with 28 samples.

Results

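Cassette exons that 2 MLL-rearranged leukemia lines included almost constantly under a non-targeting hairpin were followed through MBNL1 knockdown. A cassette exon lies between 2 other exons and is either kept in the mRNA or skipped. Its inclusion is the share of the junction reads compared for it that keep the exon, from 0% to 100%. The splicing table held 100814 rows, of which 30769 were annotated as plain cassette exons, and 23731 of those had a value in 8 or more of the 12 control libraries. The exons described here are the 8824 rows among them with a mean control inclusion of 90% or more. These rows name 6687 distinct exons in 3898 genes, because 1 exon can be measured against several skipping junctions, and such rows share reads. The control values chose the rows, so a high control level is no finding, and the room to move was up to 100 points downwards and at most 10 points upwards for the mean.

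MOLM13 (MLL-AF9) and MV4;11 (MLL-AF4) are human acute myeloid leukemia lines, and every library came from cells that carried a lentiviral hairpin and had been selected with puromycin. The 28 libraries fell into 9 groups, with 3 libraries in each except for 4 with MOLM13 sh65. In MOLM13, MBNL1 hairpin sh64 was set against the shNT control at day 4 and again at day 12, and hairpin sh65 against a second set of shNT libraries. In MV4;11, sh64 and sh65 shared 1 set of shNT libraries, so their differences from control are not independent. Neither labels nor methods gave the harvest day for MV4;11, for sh65 or for the second set of MOLM13 shNT libraries. Nor do the labels say that this second set was made alongside sh65. The 2 lines differed in medium, RPMI for MOLM13 and IMDM for MV4;11, both with fetal bovine serum. Outside the day 12 libraries nothing in the labels says that replicates were separate cultures, so p-values measure the spread between these libraries, which may be technical.

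MBNL1 is an RNA-binding protein of the muscleblind family that steers alternative splicing, polyadenylation and RNA localization. It recognizes YGCY, a 4-base element in which Y is C or T, and in muscle and other tissues sites after an exon are often linked to its inclusion, while sites before or within an exon are often linked to skipping. In myotonic dystrophy expanded CUG repeats hold MBNL proteins away from their normal targets, and developmentally regulated exons return to an immature pattern.

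Of the 10 exons with mean drops over 50 points, 6 wholly coding ones, short except for PLD1, are shown with the 100 intronic bases that follow, since the length of the exon and the elements after it are described below. They do not stand for all 10: the exon with the largest drop, in CCDC88C, has 442 bases, which is not a multiple of 3, and that of BZRAP1 has 840. Every YGCY is in capitals: the letters searched were TGCT and its variant TGCC, with CGCT and likewise CGCC, on the sense strand and with overlapping sites counted. In GRCh37 the exons are MTMR1 at chrX:149880814-149880837 on the plus strand, BAZ2B at chr2:160253585-160253611 on the minus strand, ACOT9 at chrX:23752458-23752484 on the minus strand, MTA1 at chr14:105933044-105933079 on the plus strand, MDM1 at chr12:68710361-68710390 on the minus strand and PLD1 at chr3:171404475-171404588 on the minus strand. All 6 are wholly coding in at least 1 annotated transcript and have lengths of 24, 27, 27, 36, 30 and 114 bases, each a multiple of 3. The letters are those of the reference genome.
MTMR1 exon: gttttcaggaggcctgatctaagg
MTMR1 intron: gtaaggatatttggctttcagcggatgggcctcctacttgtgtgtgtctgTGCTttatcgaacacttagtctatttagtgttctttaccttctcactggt
BAZ2B exon: gagttggagaggcatagactagatatg
BAZ2B intron: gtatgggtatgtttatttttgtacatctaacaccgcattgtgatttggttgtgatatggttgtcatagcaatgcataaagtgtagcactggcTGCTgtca
ACOT9 exon: catgttcatctatacatgtgaatcatg
ACOT9 intron: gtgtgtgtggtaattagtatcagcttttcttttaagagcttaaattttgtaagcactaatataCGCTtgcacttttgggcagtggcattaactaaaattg
MTA1 exon: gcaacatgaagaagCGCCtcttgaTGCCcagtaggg
MTA1 intron: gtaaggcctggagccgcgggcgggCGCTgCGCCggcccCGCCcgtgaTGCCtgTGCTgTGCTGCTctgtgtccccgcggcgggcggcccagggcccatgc
MDM1 exon: ggttctctaaaTGCCatgtggtaTGCTgag
MDM1 intron: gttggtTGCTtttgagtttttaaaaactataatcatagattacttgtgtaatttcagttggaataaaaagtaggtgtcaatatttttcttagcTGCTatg
PLD1 exon: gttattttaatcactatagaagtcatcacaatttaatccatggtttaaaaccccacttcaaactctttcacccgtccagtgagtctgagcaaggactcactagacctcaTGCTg
PLD1 intron: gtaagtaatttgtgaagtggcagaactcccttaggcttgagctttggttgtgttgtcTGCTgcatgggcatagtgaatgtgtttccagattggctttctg
The MTMR1, BAZ2B and ACOT9 exons held 0 YGCY sites, and 1 followed each within 100 bases. The MTA1 intron held 7, some of them overlapping. Among all 11499 cassette exons that could be placed on the genome, 65.2% had at least 1 site in the 100 bases after the exon, with a mean of 1.19 sites, so a single match is common. The longest run of sites followed the 840-base BZRAP1 exon (chr17:56385902-56386741, minus strand), where the next 250 bases held 18 sites and are shown for that reason. At least 1 site in such a 250-base window was found for 91.5% of all placed cassette exons, and 8 or more for 4.42%.
BZRAP1 intron: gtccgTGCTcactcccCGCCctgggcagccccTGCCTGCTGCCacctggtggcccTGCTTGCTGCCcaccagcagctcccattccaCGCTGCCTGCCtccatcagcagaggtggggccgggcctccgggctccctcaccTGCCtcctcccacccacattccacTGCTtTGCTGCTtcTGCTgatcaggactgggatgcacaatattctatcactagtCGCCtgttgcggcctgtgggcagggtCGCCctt

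MBNL1 itself was lower in every knockdown group. With sh64 it was at 2.94, 2.96 and 3.80 RPKM in MOLM13, against 18.8, 19.97 and 28.6 RPKM in shNT libraries, which left 14.4% of the control mean. In MV4;11 sh64 left 16.6%, and at day 12 in MOLM13 it left 16.7%. With sh65, 67.3% was left in MOLM13 (8.26 to 15.4 RPKM, against 17.5 to 20.2 RPKM) and 53.3% in MV4;11. The groups did not overlap in any of the 5 comparisons. The exact two-sided permutation p was 0.0286 for MOLM13 sh65 and 0.1 for each of the others, the smallest that 3 libraries against 3 can give. Of 10 myeloid markers 9 were at 1 RPKM or more in every library, and the 10 summed to 1084 to 4305 RPKM. The defining markers of B cells, T cells, erythroid and epithelial cells summed to at most 1.76, 12.3, 0.684 and 1.53 RPKM, with 2 of the 3 T cell markers under 1 RPKM in every library.

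Most of these exons stayed where they were. Over the 7125 rows measured in all 28 libraries, mean inclusion was 95.1% to 95.8% in MOLM13 sh64 libraries and 96.2% to 96.6% in their shNT libraries. It was 96.0% to 96.1% with sh64 and 96.7% with shNT at day 12, and 96.1% to 96.3% with sh64 and 96.5% to 96.8% with shNT in MV4;11. At the low end, 13 to 14 rows lay under 50% in each day 4 sh64 library, and sh65 libraries had 0 to 2. The shNT libraries had 0 or 1, but their own values chose the rows, so their high means and low counts were set by the rule. The libraries numbered 3 of the day 4 MOLM13 experiment stood apart. The sh64 one had 69381 events measured and 287 of these rows under 80%, against 102 and 153 in the other sh64 libraries, and the shNT one had 99, against 19 and 35.

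Against that background, inclusion of a small set of exons was lower with sh64. A row was called lower at an unadjusted limma p of 0.01 or less and a difference over 10 percentage points, the thresholds of the study. In MOLM13 at day 4, 70 of 8470 tested rows (0.826%) were called lower, naming 54 exons in 53 genes, while 1.6% of all tested cassette exon rows were called lower. A further 3 rows were called higher. Of the 70 rows, 20 differed by more than 50 points, and the median difference of the called rows was -20.2 points against a median of 0 over all tested rows of the set. After Benjamini-Hochberg adjustment over all tested events, 16 of the 70 stood at 0.05 or less.

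The other sh64 comparisons gave similar counts. In MV4;11, 60 of 8616 rows (0.696%) were lower, against 1.63% of all cassette exon rows, and 20 passed after adjustment. At day 12 in MOLM13, 70 of 8789 rows (0.796%) were lower, against 2.17%, and 42 passed after adjustment. In each case these highly included exons were called lower less often than cassette exon rows as a whole, a description with no test. In every called row the knockdown and control libraries did not overlap, but the call itself favours such rows, so this is no further support. Because the controls compared had helped to choose the rows, the choice was repeated on the 9 other control libraries. It gave 0.821% in MOLM13, 0.628% in MV4;11 and 0.812% at day 12. Without MOLM13 sh64 replicate 3 the share was 0.911%, and without both libraries numbered 3 it was 0.716%.

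Hairpin sh65, which left more MBNL1, was followed by few calls. In MOLM13, 6 of 8600 rows (0.0698%) were lower and 9 higher, against 0.644% of all cassette exon rows called lower. In MV4;11, 14 of 8632 rows (0.162%) were lower and 5 higher, against 0.572%. None of the lower rows passed after adjustment by limma in either line. At an unadjusted limma p under 0.05 there were 256 lower and 228 higher rows in MOLM13, and 267 lower and 171 higher in MV4;11. The counts of called rows were fragile: MOLM13 sh65 had 14 lower rows without its replicate 3, 12 without its replicate 1, 9 without shNT set 2 replicate b and 3 without shNT set 2 replicate c. MV4;11 sh65 had 25 without its replicate 1 and 9 without shNT replicate 1. Set directly against sh65 in MV4;11, sh64 gave 45 of 8658 rows lower (0.52%) and 4 higher, against 1.2% of all cassette exon rows called lower, and 8 of the 45 passed after adjustment.

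**Figure D1:**
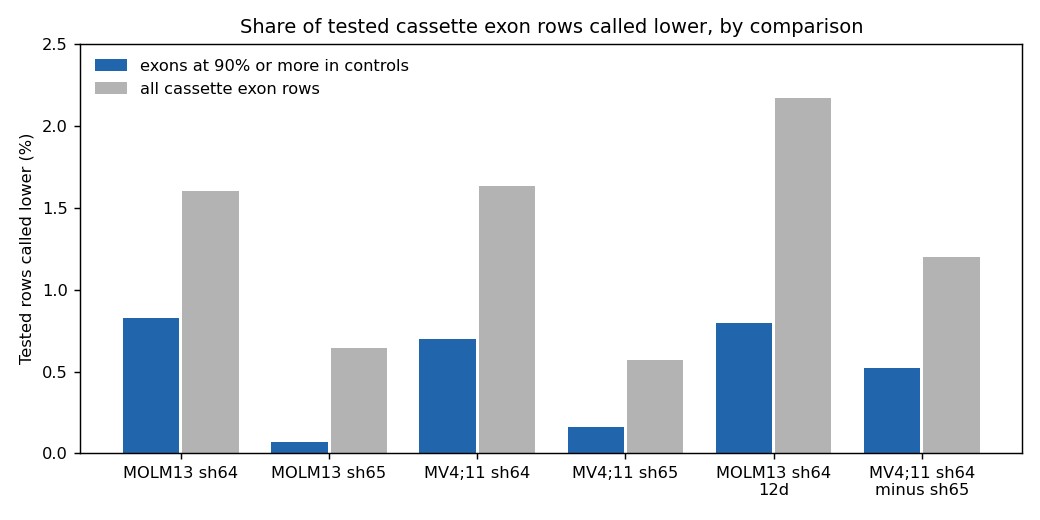
Share of tested rows called lower (vertical axis, percent) in each comparison (horizontal axis), for exons at 90% or more in controls (blue) and for all cassette exon rows (grey). The blue bars reach 0.826% in MOLM13 sh64 and 0.0698% in MOLM13 sh65, and each lies under its grey bar.

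Across the 3 sh64 comparisons, 32 rows naming 20 exons in 20 genes were called lower every time. They belong to CCDC88C, CIT, PLD1, BAZ2B, FCGR2B, MDM1, MTMR1, BZRAP1, ACOT9, MTA1, RABGAP1L, ACTN4, SPTAN1, SYK, ODF2, FAM49B, POLDIP3, MGRN1, STK25 and ACLY, and 6 of them (SYK, ODF2, FAM49B, POLDIP3, MGRN1 and ACLY) are named only because this count singled them out after the values were seen. The first 10 lost more than 50 points on average. With sh65 in MOLM13, set against other shNT libraries, 18 of the 20 were lower and POLDIP3 was 3.71 points higher. The PLD1 row used for this count was not tested there, though another row of that exon had values, given below. The median difference of the 20 was -59.5 points in MOLM13 sh64, -47.9 in MV4;11 sh64 and -68.9 at day 12, against -6.96 in MOLM13 sh65 and -5.93 in MV4;11 sh65. The 20 were chosen by the sh64 comparisons, and sh65 in MV4;11 shares its shNT libraries with sh64, so these medians are a description and the MV4;11 sh65 median is not a separate result.

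**Figure D2:**
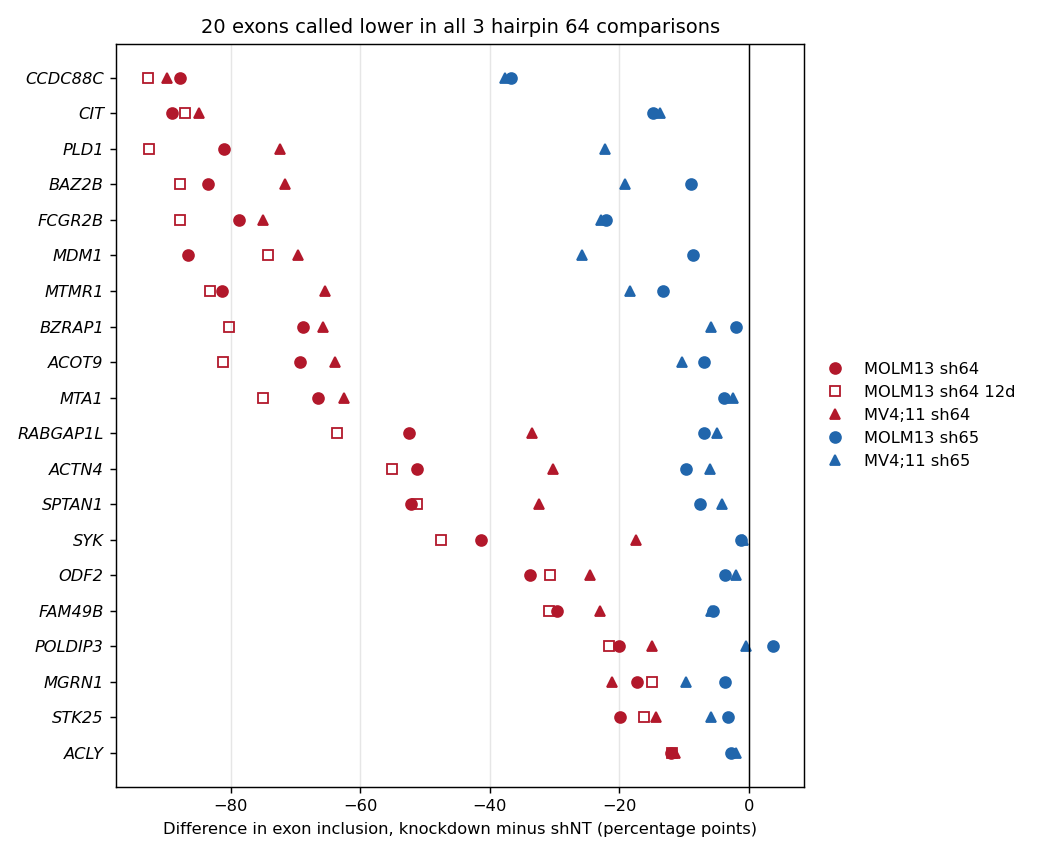
Difference in inclusion from shNT (horizontal axis, percentage points) for the 20 exons called lower in all 3 sh64 comparisons (1 per line), with sh64 in red and sh65 in blue. The red symbols run from -92.8 points for CCDC88C at day 12 to -11.3 points for ACLY in MV4;11, and the blue symbols lie between them and 0 except for POLDIP3 in MOLM13 sh65.

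The exon that moved furthest lies in CCDC88C (Daple), a Dishevelled-binding protein of Wnt signalling that also activates heterotrimeric G proteins. Its 442-base exon (chr14:91751739-91752180, minus strand) is partly coding in the annotation. Inclusion was 2.70%, 3.39% and 0% with sh64 in MOLM13, against 92.5%, 97.1% and 80% with shNT. At day 12 it was 2.59%, 3.65% and 1.96% with sh64, against 91.7%, 94.9% and 100% with shNT. The exon was thus almost fully skipped in every MOLM13 sh64 library and kept in every control. In MV4;11 it was 0%, 10% and 5.41% with sh64 and 60%, 45.7% and 66.7% with sh65, against 91.3%, 95.9% and 97.9% with shNT. The MV4;11 groups formed 3 levels without overlap, and the difference from shNT was -89.9 ± 3.32 points (SE) for sh64 (adjusted p = 0.00618) and -37.6 ± 6.18 points for sh65 (adjusted p = 0.353). The sh65 call was lost without MV4;11 shNT replicate 2 or 3 or sh65 replicate 1, where the difference lay between -38.8 and -36.2 points. In MOLM13 sh65 the 4 libraries spread widely, at 28.4%, 48.8%, 78.0% and 81.2%, against 89.8%, 100% and 97.5% in shNT set 2, and their MBNL1 levels were 8.26, 13.05, 14.3 and 15.4 RPKM in the same order. For the day 4 and day 12 MOLM13 comparisons the adjusted p was 0.0194 and 0.00095.

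PLD1 encodes phospholipase D, which makes phosphatidic acid from phosphatidylcholine, and its 114-base exon behaved similarly. With sh64 inclusion was 13.04%, 5.88% and 17.9% in MOLM13, against 86.7% and 100% in the 2 shNT libraries with a value. At day 12 it was 4.05%, 2.70% and 5% with sh64, against 96.4%, 94.7% and 98.5% with shNT (difference -92.6 ± 1.20 points, adjusted p = 0.00016). In MV4;11 it was 20%, 28.9% and 26.5% with sh64 and 76.5%, 71.4% and 78.1% with sh65, against 100%, 92.5% and 100% with shNT. Again the 3 MV4;11 groups did not overlap, and sh64 lay below sh65 (difference -50.2 ± 3.19 points, adjusted p = 0.0474). A second row of this exon had all 3 shNT libraries of MOLM13 at day 4, at 81.8%, 88.9% and 100%, against 9.09%, 0% and 11.5% with sh64. In that row MOLM13 sh65 stood at 66.7%, 85.7%, 92.3% and 86.7%, against 100% in the 2 shNT set 2 libraries with a value.

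BAZ2B, a bromodomain protein of chromatin remodelling complexes, lost its 27-base exon. Inclusion was 9.33%, 7.25% and 13.7% with sh64 in MOLM13, against 92.6%, 95.7% and 92.6% with shNT (difference -83.5 ± 2.06 points, adjusted p = 0.00294). In MV4;11 it was 27.4%, 20.7% and 22.0% with sh64 and 80%, 75.6% and 72.4% with sh65, against 99.4%, 90.4% and 95.3% with shNT. Between sh64 and sh65 the difference was -52.6 ± 2.88 points (adjusted p = 0.0385), and no library of one group reached the range of another. The sh65 difference from shNT, -19.0 points, was called, but not without MV4;11 shNT replicate 3 or sh65 replicate 2 or 3, with values of -18.9, -18.8 and -17.2 points. A second chromatin gene, MTA1, a subunit of the NuRD deacetylase complex, had its 36-base exon at 23.1%, 24.2% and 44.6% with sh64 in MOLM13, against 98.97%, 92.6% and 100% with shNT. In MV4;11 the MTA1 exon stood at 30.1%, 33.2% and 46.1% with sh64 but at 93.0%, 98.4% and 97.9% with sh65, against 97.5%, 100% and 99.2% with shNT. Here sh65 overlapped shNT, and only sh64 was called lower (difference -62.4 ± 4.73 points, adjusted p = 0.0349).

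MTMR1, a phosphoinositide phosphatase of the myotubularin family whose splicing is disturbed in myotonic dystrophy muscle, had the shortest of these exons. With sh64 inclusion was 10.9%, 13.04% and 17.6% in MOLM13, against 94.3%, 91.3% and 100% with shNT (difference -81.4 ± 3.08 points, adjusted p = 0.00702). In MV4;11 it was 21.9%, 11.1% and 30.6% with sh64 and 82.6%, 62.2% and 60% with sh65, against 79.7%, 98.1% and 81.8% with shNT. The MV4;11 sh64 libraries were below all others, while 1 sh65 library lay within the shNT range, and the sh64 difference was -65.4 ± 7.73 points (adjusted p = 0.102).

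ACOT9, a mitochondrial acyl-CoA thioesterase, had its 27-base exon at 25.5%, 19.7% and 33.9% with sh64 in MOLM13, against 93.8%, 97.4% and 95.8% with shNT. In MV4;11 inclusion was 34.6%, 30.3% and 36.97% with sh64 and 87.8%, 92.8% and 82.0% with sh65, against 98.1%, 96.8% and 98.5% with shNT. The sh65 libraries lay under the shNT libraries and far above the sh64 libraries, with differences from shNT of -10.2 points for sh65, not called, and -63.8 ± 1.91 points for sh64 (adjusted p = 0.00473). MDM1, a microtubule-binding protein of centrioles, was noisier: its 30-base exon stood at 0%, 22.2% and 0% with sh64 in MOLM13, against 85.3%, 96.7% and 100% with shNT (adjusted p = 0.0631). At day 12 the MDM1 exon stood at 19.6%, 20% and 30.8% with sh64, against 97.1%, 96.6% and 99.2% with shNT (adjusted p = 0.00551). The groups did not overlap on either day.

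CIT encodes citron kinase, which is needed for cytokinesis, and its 45-base exon (chr12:120148854-120148898, minus strand) carries no coding sequence in the annotation. It was measured in only 2 libraries a group at day 4, at 11.5% and 0% with sh64, against 93.0% and 96.7% with shNT, and the call was lost when replicate numbers were treated as pairs (difference -89.1 points in the paired fit). At day 12, with all libraries measured, it stood at 2.44%, 6.67% and 4.17% with sh64, against 91.7%, 94.7% and 88.1% with shNT (difference -87.1 ± 2.14 points, adjusted p = 0.000911). FCGR2B, the inhibitory receptor for IgG, had its 57-base exon at 1.68%, 8.38% and 5% with sh64 at day 12, against 95.2%, 91.8% and 91.5% with shNT, but near-identical FCGR2 genes may share its reads, so its value is uncertain.

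**Figure D3:**
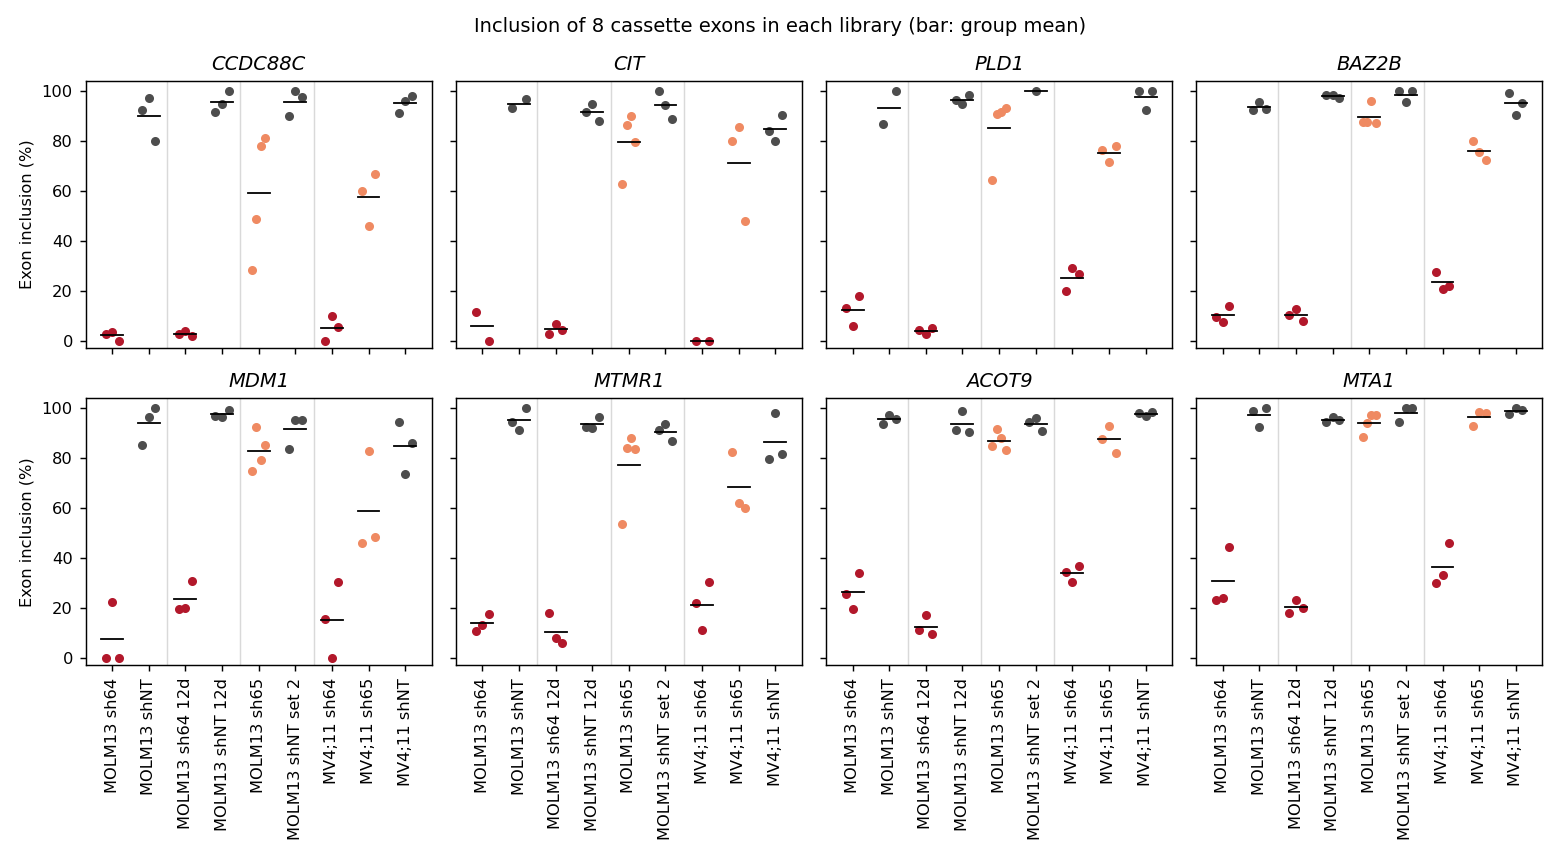
Inclusion (vertical axis, percent) of 8 exons in every library (points) of the 9 groups (horizontal axis), with sh64 in red, sh65 in orange, shNT in dark grey and the group mean as a bar. For CCDC88C, PLD1 and BAZ2B the MV4;11 points form 3 separate levels, with sh65 between sh64 and shNT.

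A long exon and exons of cytoskeletal genes were also lower. BZRAP1, a protein of the presynaptic active zone that binds RIM, had its 840-base coding exon at 25.1%, 23.5% and 37.7% with sh64 in MOLM13, against 96.0%, 98.3% and 98.5% with shNT (difference -68.9 ± 4.33 points, adjusted p = 0.0242). ACTN4, an actin crosslinker, had its 86-base exon at 41.3%, 48.5% and 46.4% with sh64 in MOLM13, against 97.6%, 96.2% and 96.0% with shNT (difference -51.2 ± 2.08 points, adjusted p = 0.00903). In MV4;11 the ACTN4 exon stayed higher, at 65.6%, 69.2% and 69.1% with sh64 and at 93.5%, 89.99% and 93.3% with sh65, against 97.6%, 98.4% and 98.7% with shNT. The ACTN4 difference was smaller in MV4;11 than in MOLM13 by 20.9 points (adjusted p = 0.0487 for the interaction), the only row of 8328 tested here to pass in the test between lines, where 0.0135% of all cassette exon rows passed. An unadjusted limma p under 0.05 was found for 398 of the 8328 rows, no more than that cutoff gives by chance alone. The count that passed was unstable: it was 0 without MV4;11 shNT replicate 2, 15 without MOLM13 sh64 replicate 3, 1 without MV4;11 sh64 replicate 2 and 3 to 7 without any other library.

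SPTAN1, a spectrin of the membrane skeleton, had its 60-base exon at 40.9%, 27.6% and 50.5% with sh64 in MOLM13, against 92.6%, 96.2% and 86.7% with shNT, a call lost in the paired fit at -52.2 points. At day 12 the SPTAN1 exon differed by -51.2 ± 3.56 points (adjusted p = 0.0147). RABGAP1L, a GTPase-activating protein for Rab proteins in membrane traffic, had 44.8% and 48.1% in the 2 sh64 libraries of MOLM13 with a value, against 98.2%, 98.5% and 100% with shNT (adjusted p = 0.0118). STK25, a Golgi-associated kinase, moved least of those named by rule and lower in all 3 sh64 comparisons, with 71.3%, 73.6% and 81.3% with sh64 in MOLM13, against 96.7%, 92.1% and 97.2% with shNT. Its MOLM13 call was lost without shNT replicate 1 or 3 or sh64 replicate 2, at -19.3, -19.0 and -19.0 points.

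Calls of 1 comparison were also read in comparisons made with other libraries. Of the 70 rows lower with sh64 in MOLM13 at day 4, 34 (48.6%) were also called lower in MV4;11, and those were 56.7% of the 60 rows called there. At day 12, 41 of the 70 (58.6%) were called lower, 58.6% of the 70 rows called there. In MOLM13 sh65, 0 of the 70 were called by limma and 14 were lower at an unadjusted p under 0.05, where 256 of all 8600 tested rows were. The median difference was -2.75 points, against 0 over all tested rows, with 54 of 69 lower, against 4026 of 8600. Counting over the 5 comparisons with shNT, of which both in MV4;11 share their controls, 8687 rows were never called lower, 92 once, 13 in 2, 26 in 3, 6 in 4 (CCDC88C, PLD1 and BAZ2B) and 0 in 5.

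Several gene families were read through the set, and the median difference of each lay between -0.396 and 0.143 points in the 3 sh64 comparisons. The counts of rows called lower stand beside 0.826%, 0.696% and 0.796% over all tested rows of the set in MOLM13 at day 4, in MV4;11 and at day 12, and no list was tested against the rest. Of the enzymes of lipid and inositol metabolism, 7 of 162 rows were lower at day 4 in MOLM13 (4.32%), 4 of 164 in MV4;11 (2.44%) and 4 of 166 at day 12 (2.41%), with PLD1 and MTMR1 in all 3. PITPNC1, a phosphatidylinositol transfer protein, PIK3R5, a regulatory subunit of PI3-kinase gamma, and DGKZ, a diacylglycerol kinase, were called only in MOLM13 at day 4, and whether the days or lines differ for them was not shown. The DGKZ exon was at 78.7%, 79.6% and 75.3% with sh64, against 90.3%, 86.9% and 96.7% with shNT, a call lost in the paired fit at -13.4 points and without shNT replicate 1 or any 1 sh64 library.

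Genes of actin and adhesion had 5 of 204 (2.45%), 5 of 206 (2.43%) and 5 of 212 (2.36%) rows lower in MOLM13, MV4;11 and at day 12, all in CCDC88C, SPTAN1 and ACTN4. Chromatin genes had 4 of 303 (1.32%), 4 of 303 and 7 of 309 (2.27%), with HDAC7, KDM1B and MBD1 joining BAZ2B and MTA1 at day 12. GTPase regulators had 2 of 173, 2 of 181 and 4 of 184 (RABGAP1L, with DENND3 at day 12), and membrane trafficking genes 3 of 265, 3 of 276 and 5 of 279. One trafficking row, in the golgin gene GOLGA4, was lower at 66.7%, 63.6% and 63.2% with sh64 in MOLM13, against 84.0%, 95.5% and 100% with shNT, but it did not enter the set when the other 9 controls chose it. Its call was lost in the paired fit at -28.7 points and without shNT replicate 2 or any 1 sh64 library. Kinases and phosphatases had 1 of 282 (0.355%), 3 of 289 (1.04%) and 1 of 290 (0.345%) rows lower, with STK25 in all 3 and MAPK8IP3 and CDK10 in MV4;11. The ubiquitin list had 2 of 386, 1 of 401 and 1 of 405, and there MDM1 entered by its name only and is no ubiquitin gene. The small Wnt and Notch list had 2 of 48, 2 of 47 and 2 of 49 rows lower, all in CCDC88C, and the list of genes mis-spliced in myotonic dystrophy had 1 of 22, 1 of 23 and 1 of 23, all in MTMR1. RNA-binding and splicing factors had 0 of 205, 0 of 205 and 0 of 208 rows called lower by limma, with 5, 8 and 11 lower at an unadjusted p under 0.05. Over all tested rows of the set, 385 of 8470, 444 of 8616 and 537 of 8789 were lower at that cutoff, so the shares in this list were no larger.

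Length and frame were described for exons called lower and for the rest. Coordinates could be assigned to exons of 92.2% of the rows. The 20 exons lower in all 3 sh64 comparisons had a median length of 67.5 bases (interquartile range 34.5 to 118), the 90 lower in at least 1 a median of 110.5, and the 5520 never called a median of 126. Lengths that were multiples of 3 made up 14 of 20 (70.0%), 43 of 90 (47.8%) and 1973 of 5520 (35.7%), against 40.1% of all placed cassette exons. Exons under 50 bases made up 35.0%, 13.3% and 3.46%, against 6.82%. Wholly coding in at least 1 annotated transcript were 14 of the 20 (70.0%), 74 of the 90 (82.2%) and 5091 of the 5520 (92.2%). Among all placed cassette exons the share was 70.0%, so the called exons were less often wholly coding than those never called. Regions are not replicates, so these shares carry no test.

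The same order appeared for YGCY after the exon and, less steeply in the means, before it. In the next 250 bases the 20 exons held a mean of 6.6 sites and a median of 5, the 90 a mean of 4.57 and the 5520 a mean of 2.89, against 3.05 for all placed cassette exons. Windows with 8 or more sites followed 5 of the 20 (25%), 10 of the 90 (11.1%) and 209 of the 5520 (3.79%). Such windows also came before 20%, 10% and 3.84% of these exons, so dense sites were not particular to the side after the exon. In the 250 bases before the exon the means were 4, 3.66 and 2.93, and per 100 bases of exon they were 1.15, 1.41 and 1.39. Among the 20, BZRAP1 with 18 sites, SYK with 17 and ACTN4 with 12 had the most, whereas RABGAP1L had 1 and FCGR2B had 2, so a high count was not shared by all. A match is a string of letters, and binding was not measured.

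**Figure D4:**
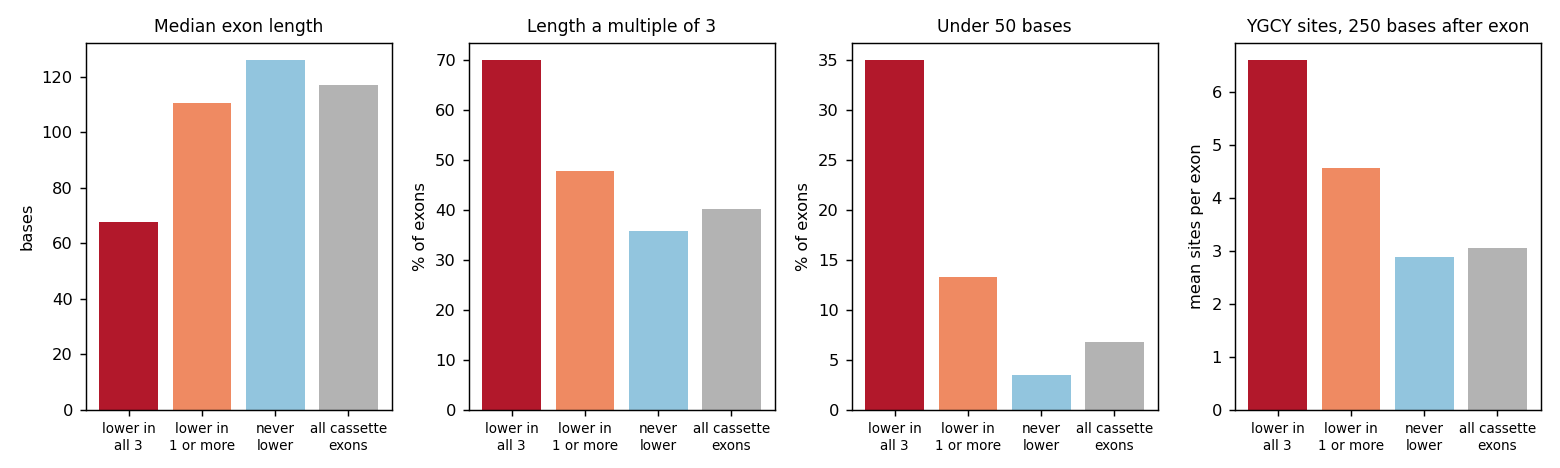
Median length (bases), share with a length that is a multiple of 3 (percent), share under 50 bases (percent) and mean YGCY sites in the 250 bases after the exon, for exons lower in all 3 sh64 comparisons (20), in at least 1 (90, which include the 20), never called lower (5520) and all placed cassette exons (11499). Length goes up and the other measures go down across the first 3 bars.

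A few exons with little room above were called higher. PANK4, of the pantothenate kinase family, was at 100%, 100% and 98.7% with sh64 at day 12, against 84.8%, 83.6% and 84.1% with shNT (difference 15.4 ± 0.52 points, adjusted p = 0.00212), while at day 4 it was at 98.7%, 100% and 100% with sh64, against 97.2%, 93.9% and 100% with shNT. Of the groups just given only day 12 shNT was low, and elsewhere MV4;11 sh65 replicate 2 stood at 83.5%. PLXND1, a semaphorin receptor, was at 98.8%, 99.2% and 96.3% with sh65 in MV4;11, against 84.6%, 88.1% and 85% with shNT (difference 12.2 ± 1.37 points, adjusted p = 0.205), and sh64 there, at 84.5%, 82.1% and 88.5%, overlapped shNT. FAS, the death receptor, was at 97.5%, 97.5%, 98.3% and 100% with sh65 in MOLM13, against 92.9%, 85.2% and 81.0% in shNT set 2 (adjusted p = 0.396), and its call was lost in 6 of the 7 fits that left out 1 library, all but that without shNT set 2 replicate a. The other exons called higher and named by rule were in PDK3, AGAP4 and DCUN1D2 (MOLM13 sh64, all lost in the paired fit at 18.2, 12.1 and 10.6 points), NEK1, ZSCAN12, AZI1 (lower at day 12) and STX2 (MOLM13 sh65), AGER and NBPF1 (MV4;11 sh64), AGER, POLI, MCM9 and C12orf44 (MV4;11 sh65), USP54, SECISBP2, KIAA1841 and WDR67 (day 12), and ANAPC10, LINC00476, CAST and C1orf27 (sh64 over sh65 in MV4;11). AGAP4 and NBPF1 have near-identical copies, so their values are uncertain.

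The 6 rows lower with sh65 in MOLM13 were not called in any sh64 comparison. They were in EZH1, a histone methyltransferase of Polycomb complexes, CRY2, a repressor of the circadian clock, C11orf30, HELQ, AACS and DHX36, with differences from -17.0 to -10.03 points. CRY2, for instance, was at 89.5%, 81.0%, 85.7% and 88.9% with sh65, against 100% in all 3 libraries of shNT set 2. At an unadjusted limma p under 0.05, 0 of the 6 were lower with sh64 in MOLM13, 0 at day 12 and 1 in MV4;11. AACS had rows for another exon that were called lower with sh64 in MOLM13. The adjusted p of the 6 in MOLM13 sh65 lay between 0.197 and 0.422. C11orf30 and HELQ did not enter the set when the other 9 controls chose it. With 1 library left out, EZH1 and CRY2 kept their calls in all 7 fits, while AACS lost its call in 6, HELQ in 5, DHX36 in 4 and C11orf30 in 1. In MV4;11 the lower sh65 exons outside CCDC88C, PLD1 and BAZ2B were in ANAPC10, FYN, AF011889.5 and ITFG2, among others, with differences of -17.5, -15.9, -14.5 and -12.4 points and adjusted p from 0.0599 to 0.516. The ANAPC10 call was lost without any 1 shNT library or sh65 replicate 2 or 3, and that of AF011889.5 without any 1 shNT library or sh65 replicate 3.

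Day 4 and day 12 of sh64 in MOLM13 differed for 2 of 8449 rows at an adjusted interaction p of 0.05 or less, where 0.0306% of all cassette exon rows passed. An unadjusted limma p under 0.05 was found for 408 of the 8449 rows, no more than that cutoff gives by chance alone. IKBKG, the NEMO subunit of the kinase complex that activates NF-kB, was at 90.4%, 91.4% and 93.0% with sh64 at day 12, against 98.9%, 98.0% and 98.1% with shNT, and at 98.7%, 100% and 97.9% with sh64 at day 4, against 88.9%, 89.6% and 91.5% with shNT. Its groups were apart in opposite directions on the 2 days (difference of differences -15.6 points, adjusted p = 0.00581), and a partial copy of the gene may share its reads. LANCL2 differed by only 1.69 points, because its day 12 shNT libraries were all at 98.3% and the other libraries of the test at 100%. The count ran from 2 to 9 when 1 library was left out and was above 3 for 10 of the 12 libraries, all but MOLM13 shNT replicates 1 and 2, and it was 0 when replicate numbers were treated as pairs. The 2 days were also sequenced on different instruments, so day and run cannot be told apart.

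Most genes that held the lowered exons changed little in expression: the log2 fold change was under 0.5 in size for 43 of 50 tested with sh64 in MOLM13, 32 of 44 in MV4;11 and 41 of 49 at day 12. A gene was called at an unadjusted limma p of 0.01 or less and a 1.5-fold change on the log2(RPKM + 1) scale, which understates changes of low genes. In MOLM13 at day 4, 3 of 50 tested host genes were called in either direction (6%), while 2.42% of all tested genes were, and 0 passed after adjustment. By limma, 249 of all 10289 genes were called there and 0 passed after adjustment. The host share was 3.92% without MOLM13 shNT replicate 1 or sh64 replicate 3, and 10% in the paired fit. In MV4;11 sh64, 9 of 44 were called (20.5%), against 6.51% of all genes, and 8 passed after adjustment. At day 12, 4 of 49 were called (8.16%), against 5.52%, and 2 of 49 (4.08%) without sh64 12d replicate 3. With sh65, 0 of 6 in MOLM13 and 0 of 10 in MV4;11 were called by limma, against 3.24% and 3.63% of all genes. At an unadjusted p under 0.05 there was 1 in each line. The count was 1 of 6 (16.7%) in MOLM13 without shNT set 2 replicate a. The median log2 fold change of the host genes lay between -0.03 and 0.06 in all 5 comparisons.

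Among host genes, 3 were called in all 3 sh64 comparisons. BZRAP1 had 102.9 ± 6.999 RPKM with sh64 and 40.0 ± 10.3 RPKM with shNT in MOLM13 at day 4 (SD, log2 fold change 1.37, adjusted p = 0.162), and 118.5 ± 6.499 RPKM with sh64 and 48.4 ± 0.977 RPKM with shNT at day 12 (log2 fold change 1.27, adjusted p = 2.39e-06). CCDC88C was higher with sh64 than with shNT, with log2 fold changes of 0.75 at day 4, 0.60 at day 12 (adjusted p = 6.01e-05) and 0.87 in MV4;11 (adjusted p = 0.0116). RABGAP1L was lower, with log2 fold changes of -0.94, -0.95 (adjusted p = 1.45e-05) and -1.002 (adjusted p = 0.0134). The other called hosts were PVT1 at day 12 (-0.65), and in MV4;11 MAPK8IP3 (1.01), RPUSD1 (0.85), MGRN1 (0.64) and ACSF2 (0.60), which were higher, and OLR1 (-0.79) and MDM1 (-0.60), which were lower.

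**Figure D5:**
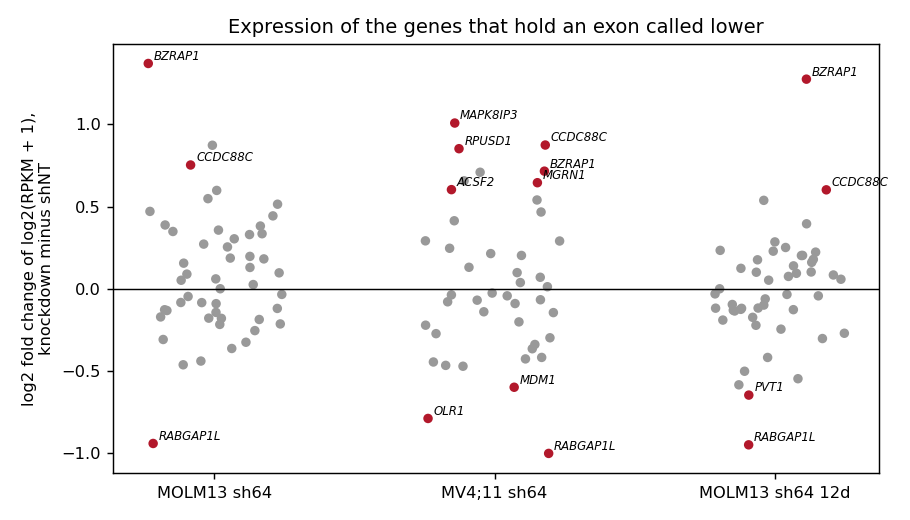
Change in expression (vertical axis, log2 fold change of RPKM + 1, sh64 minus shNT) of each gene that held an exon called lower, in the 3 sh64 comparisons (horizontal axis), with called genes in red and named. Most points lie near 0, with BZRAP1 at 1.37 and RABGAP1L at -0.94 in MOLM13 at day 4.

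At the edge of the set, rows just inside 90% were in MRPL55 (90.002%) and MFSD12 (90.002%), and those just outside were in CEP95 (89.995%), SSH1 (89.997%) and ADCY9 (89.998%). The set as a whole sat well above that line, with a median control mean of 97.2% (interquartile range 94.3% to 99.1%), 6143 rows at 95% or more and 608 at exactly 100%.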

How the data were processed

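RNA from MOLM13 and MV4;11 cells was sequenced on a HiSeq instrument, the day 12 libraries on a NovaSeq. The submitters' processing notes name STAR and hg19 (GRCh37). Per the study's methods, the authors then ran AltAnalyze with the Ensembl 72 annotation to give the deposited fraction per splicing event (PSI, the share of junction reads that support the examined junction against a background junction) and the deposited RPKM per gene. The splicing table also holds the authors' own difference between groups, which was not used. Read counts behind each fraction are not in the values used, so the depth of a PSI value is unknown and no counting interval is given.

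Inclusion was PSI where the examined junction was the shorter of the pair and 1 minus PSI otherwise, in percent. Events were fitted when over 50% of each group's libraries had a value, with limma 3.58.1 (R 4.3.3), and p-values were adjusted by Benjamini-Hochberg over all tested events. Host genes were fitted with limma on log2(RPKM + 1) where one group or the other averaged 1 RPKM or more. Events were called as in the study, at p of 0.01 or less and over 10 points, or 1.5-fold for genes. The test was tested on simulated data first. Exons and flanks were read from the GRCh37 reference with pysam 0.24.0, and figures drawn with matplotlib 3.10.9 under Python 3.11.15.

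Rows named in the text were, per comparison, the 8 largest non-overlapping drops, genes called lower in 4 or more comparisons, up to 5 rows called higher, the 3 largest drops of each family list, the 3 rows on each side of 90%, and the interactions with the lowest p, with 1 row per gene and comparison. A few rows that met this rule are not reported here. The members, the lists and this rule were chosen with earlier results of these data known. The 3 libraries of shNT set 2 are matched to their group only. Replicate numbers of the day 4 MOLM13 libraries were treated as pairs in an alternative fit, because same-numbered sh64 and shNT libraries deviated together in gene expression (r = 0.848, 0.799 and 0.882 across genes, which are not independent). In inclusion these correlations were 0.189, 0.0973 and 0.316. Alternatives were an adjusted threshold, 20 points, a logit scale, complete values only, 1 row per junction cluster, control cutoffs of 85% and 95%, 1 fit over 28 libraries, all 6 MOLM13 shNT libraries outside day 12 as controls, members chosen on the 9 other controls, a pseudocount of 0.1, no RPKM filter, the replicate block and leaving out each library.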

Additional observations from a re-analysis of the deposited data

Results flagged for a closer look

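In the 4 MOLM13 sh65 libraries, the exons named there and MBNL1 gave 15 groups of values. STX2, at 100% in all 4 libraries, could not be checked for 1 library far from the rest. Of the others, 3 had one. The cutoff is passed by about 1 in 20 groups of normally distributed values. That rate does not hold for inclusion tied at 100%, as for NEK1, so no chance rate is given. BAZ2B inclusion was 95.9% in 1 library and 87.2% to 87.8% in the others. NEK1 inclusion was 94.1% in 1 library and 100% in the others. PLD1 inclusion was 64.3% in 1 library and 90.9% to 93.1% in the others, and that library, replicate 1, also had the lowest MBNL1 level, at 8.26 RPKM.

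By the limma interaction the effect of sh64 differed between days or lines for 3 exons at an adjusted p of 0.05 or less. Among all tested cassette exon rows 0.0306% passed between days and 0.0135% between lines, no smaller shares than among these rows. With replicate numbers as pairs 0 passed between days, and without MV4;11 shNT replicate 2 there were 0 between lines. Day and sequencing run cannot be told apart. The difference of IKBKG changed by -15.6 points at day 12 relative to day 4, and that of LANCL2 by 1.69 points. The ACTN4 difference was 20.9 points less negative in MV4;11 than in MOLM13.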

How the results depend on the processing

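No reversal of direction was found among the 85 named results, which do not include SYK, ODF2, FAM49B, POLDIP3, MGRN1, ACLY or the interactions. Several alternatives could not have shown one. Stricter thresholds leave the difference itself unchanged, and leaving out 1 library cannot reverse groups that do not overlap. The replicate block gave CIT and SPTAN1 in MOLM13 at day 4 the same difference as the main fit. The absence of reversals is therefore no separate support for direction. Calls were often lost: at an adjusted p of 0.05 or less 54 were lost among the 85 named results. Of 497 fits with 1 library left out, 109 lost a call. For the 10 exons with the largest drops, no sh64 call against shNT was lost in the fits run with 1 library left out. These were not run for BZRAP1 in MOLM13 at day 4, MTA1 in MV4;11 and at day 12 or MDM1 at day 12, and for CIT in MOLM13 at day 4 and in MV4;11, and PLD1 in MOLM13 at day 4, some of them gave no value. Depth behind each fraction is unknown, so noise from few junction reads cannot be separated from other spread. Causes of the shifts that follow were not tested.

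Shares of rows called lower moved as follows, in the order MOLM13 sh64, MOLM13 sh65, MV4;11 sh64, MV4;11 sh65, day 12 and sh64 against sh65. At an adjusted p of 0.05 or less they were 0.189%, 0%, 0.232%, 0%, 0.478% and 0.0924%. At over 20 points they were 0.437%, 0%, 0.313%, 0.0348%, 0.398% and 0.266%. On the logit scale MOLM13 sh65 gave 0.14% and MV4;11 sh65 0.255%, and with 1 row per junction cluster MOLM13 sh65 gave 0.121%. At a control mean of 95% or more, MOLM13 sh65 gave 0.0167%, MV4;11 sh64 0.449%, MV4;11 sh65 0.083% and day 12 0.49%, and at 85% or more MOLM13 sh65 gave 0.166% and MV4;11 sh65 0.263%. With 1 fit over all 28 libraries MOLM13 sh64 gave 1.72%, MOLM13 sh65 0.186% and MV4;11 sh65 0.336%. With all 6 MOLM13 shNT libraries outside day 12, MOLM13 sh64 gave 1.41% and MOLM13 sh65 0.151%. On the logit scale 8 rows differed between days and 6 between lines. With 1 library left out the shares ran from 0.624% to 1.02%, 0.0359% to 0.162%, 0.53% to 0.856%, 0.106% to 0.291%, 0.627% to 0.98% and 0.418% to 0.596%, the days count from 2 to 9 and the lines count from 0 to 15. Leaving out both MOLM13 libraries numbered 3, chosen after seeing the data, gave 0.716% for MOLM13 sh64.

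For host genes, an adjusted p of 0.05 or less gave 0% in MOLM13 sh64, a pseudocount of 0.1 gave 16.7% in MOLM13 sh65 and 10% in MV4;11 sh65, and no RPKM filter gave 12.5% in MV4;11 sh64. Leaving out 1 library gave 3.92% to 8% in MOLM13 sh64, 0% to 16.7% in MOLM13 sh65, 13.6% to 28.9% in MV4;11 sh64, 0% to 0% in MV4;11 sh65 and 4.08% to 10.2% at day 12.

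With the replicate number as a block, 0.602% of rows were called lower in MOLM13 sh64, 0.522% in MV4;11 sh64, 0.139% in MV4;11 sh65, 0.592% at day 12 and 0.347% for sh64 against sh65, 0 rows differed between days and 1 between lines, and 10% of host genes were called in MOLM13 sh64. Among 72 named results 19 calls were lost under the block. Outside the day 4 MOLM13 libraries same-numbered libraries did not deviate together (r from -0.645 to 0.0561 in expression), so there they share only a number.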
